A study of Mus musculus with 9 samples.

Results

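The genes described here are 35 genes of peroxide defence and thioredoxin chemistry: 6 glutathione peroxidases, 6 peroxiredoxins with sulfiredoxin, the thioredoxins, their reductases and the glutaredoxins, catalase with the superoxide dismutases, the genes that supply glutathione, and the Nrf2 pair with 2 of its classical targets. They were chosen by gene symbol from a list of the pathway, with earlier results of these data known. All 35 were among the 33924 genes of the count table, and all 35 were among the 17079 genes with enough counts to be tested. RNA was sequenced from whole mouse thyroid in 3 genotype groups of 3 libraries each, labelled Smarcb1 KO, Arid2 KO and Wildtype. Smarcb1 encodes a core subunit of the SWI/SNF chromatin remodelling complexes, and Arid2 a subunit of the PBAF form. The labels give no treatment, age, sex, strain or Cre driver, do not say in which cells the genes were deleted, and do not tie libraries to animals. Each p-value here therefore rests on how far libraries of a group lie from each other, which may be technical.

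Thyroid follicular cells make hydrogen peroxide at their apical surface, because thyroid peroxidase needs it to attach iodine to thyroglobulin. The same cells must remove peroxide that escapes into the cell. Glutathione peroxidases reduce it with glutathione, peroxiredoxins reduce it with electrons from thioredoxin, and catalase splits it in peroxisomes. NADPH recharges both systems through glutathione reductase and the thioredoxin reductases. The transcription factor Nrf2, encoded by Nfe2l2, drives many of these genes and is kept low by Keap1, which marks it for degradation.

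Several of these enzymes turn on a single residue, selenocysteine, which is written by the codon TGA that elsewhere ends a protein. The lines below show that codon in its coding context for the 6 glutathione peroxidases and the 3 thioredoxin reductases, since it separates the members with selenium from those without. The capitals mark the codon of the catalytic residue. The sequences were read from GENCODE M21 transcripts of GRCm38, 5′ to 3′ on the gene's own strand. The TGA of Gpx1 lies at chr9:108339451-108339453 on the plus strand, that of Gpx2 at chr12:76795256-76795258 on the minus strand, that of Gpx3 at chr11:54907256-54907258 on the plus strand and that of Gpx4 at chr10:80054737-80054739 on the plus strand. Gpx7 and Gpx8 carry a cysteine codon at the aligned place. In the thioredoxin reductases the TGA is the last codon but 1 of the protein.
Gpx1: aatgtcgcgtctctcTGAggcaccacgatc
Gpx2: aatgtggcgtcactcTGAggaacaactacc
Gpx3: aacgtagccagctacTGAggtctgacagac
Gpx4: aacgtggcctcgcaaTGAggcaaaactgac
Gpx7: aacgtagctagcgaaTGTggcttcacagac
Gpx8: aacgtggctagtgacTGCcgcttcacagac
Txnrd1: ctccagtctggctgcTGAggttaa
Txnrd2: actgtgactggttgcTGAggctaa
Txnrd3: actcagaaaggctgcTGAggctag

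The libraries differed in depth and in neighbouring tissue. Total counts ran from 38644867 to 41362640 in the Smarcb1 KO-labelled libraries, from 61179297 to 89553766 in the Arid2 KO-labelled libraries and from 33666251 to 34045321 in Wildtype, and the thyroglobulin gene Tg took 24.1% to 30.8% of them. Levels below are CPM, read counts scaled to a common library total with the TMM factors of edgeR. The Smarcb1 gene itself had 47.5, 53.7 and 59.4 CPM in the Smarcb1 KO-labelled libraries, against 65.9, 71.7 and 69.3 CPM in Wildtype thyroids (log2 fold change -0.36, SE 0.11, edgeR adjusted p = 0.0651). The Arid2 gene had 94.6, 77.7 and 59.9 CPM in the Arid2 KO-labelled libraries, against 68.9, 74.96 and 67.8 CPM in Wildtype (0.13, SE 0.16, adjusted p = 0.745). A count over the whole gene includes exons outside a deletion and cells outside its reach, so neither value settles the labels, and every direction given here is that of the libraries so labelled. The summed level of 6 thymocyte markers was 928 CPM in Arid2 KO-labelled replicate 1 and 138 CPM in Smarcb1 KO-labelled replicate 2, and at most 1.15 CPM in the other libraries. Calls that change without both of those libraries are given both ways. In such bulk tissue fewer cells of a type and less RNA per cell cannot be told apart.

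In Wildtype thyroid the highest levels per kilobase of transcript belonged to glutathione peroxidases, the microsomal transferase and the thioredoxin system. Gpx4, the selenoenzyme that reduces lipid peroxides in membranes, stood at 319.7 ± 53 CPM per kilobase of its longest transcript (mean ± SD, n = 3). Mgst1, a microsomal glutathione transferase with peroxidase activity, stood at 309 ± 75, thioredoxin Txn1 at 270.1 ± 29 and the peroxiredoxin Prdx1 at 225 ± 25 CPM per kilobase. Next came Txnip, the thioredoxin-binding protein, at 221 ± 47, the cytosolic glutathione peroxidase Gpx1 at 189 ± 39, the secreted Gpx3 at 141 ± 25 and Prdx5 at 136 ± 8.9 CPM per kilobase. The lowest were glutathione synthetase Gss at 3.51 ± 0.86 and the cystine transporter Slc7a11 at 0.255 ± 0.10 CPM per kilobase. Of the 34 neighbouring pairs in this order, 28 differed by less than their summed SDs, so most of the order is not resolved. The gaps of Prdx5 over Prdx6 and of Gss over Slc7a11 were among the 6 that exceeded it. The scale depends on the transcript chosen: with the union of a gene's exons as length Txn1 came first and Txnip next, and Gpx4 stood at 185 CPM per kilobase in place of 319.7. The summed level of all 35 genes was 4900, 4052 and 4192 CPM in the Smarcb1 KO-labelled libraries, 4780, 4778 and 5385 CPM in the Arid2 KO-labelled libraries and 4911, 4742 and 5695 CPM in Wildtype. These ranges overlap, so the groups did not separate by the pooled level of the module.

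**Figure D1:**
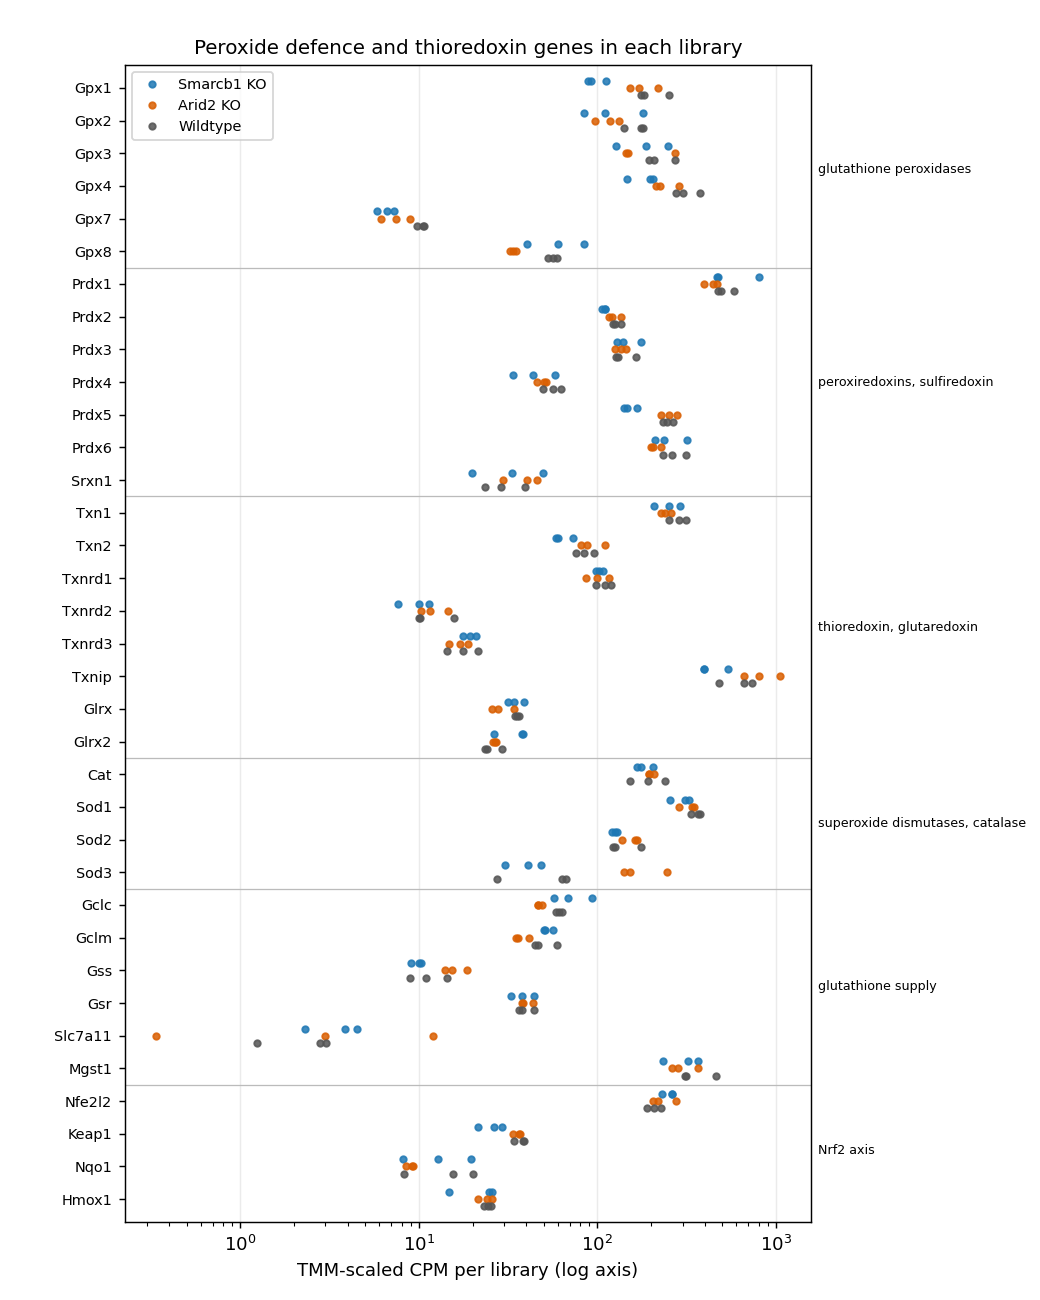
Level of each of the 35 genes in each library, in TMM-scaled CPM on a log axis. Rows are grouped by role, and points are the 3 libraries of each group (Smarcb1 KO-labelled in blue, Arid2 KO-labelled in orange, Wildtype in grey). The 3 orange Sod3 points stand to the right of the other 6, and the 3 blue Gpx1 and Prdx5 points to the left of the other 6.

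In the Smarcb1 KO-labelled thyroids 4 of the 35 genes fell and 0 rose against Wildtype. The 4 are Gpx1, Gpx4, Prdx5 and Keap1. Gpx1 was at 0.478 of its Wildtype level, Gpx4 at 0.574, Prdx5 at 0.613 and Keap1 at 0.695. A gene was called at an adjusted p under 0.05 in edgeR's quasi-likelihood test, with Benjamini-Hochberg adjustment over all 17079 genes. Among the members 11.4% were called lower and 0% higher, against 5.74% lower and 2.15% higher of all genes tested. The 35 members had a median log2 fold change of -0.17, and all genes tested one of 0.05. A further 4 members, Gpx7, Txn2, Glrx2 and Prdx2, had an unadjusted p under 0.05 without passing. With the called ones, 8 of the 35 members had such a p, as did 4850 of the 17079 genes tested.

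Among the glutathione peroxidases, Gpx1, the most widespread and cytosolic form, stood at 91.7, 111 and 88.3 CPM in the Smarcb1 KO-labelled libraries, against 176, 182 and 251 CPM in Wildtype. The groups did not overlap, and the highest knockout-labelled library lay well under the lowest Wildtype one. Its log2 fold change of -1.06 (SE 0.19) passed with an edgeR adjusted p of 0.0143. Without Smarcb1 KO-labelled replicate 3 the value was -1.003 with an adjusted p of 0.0618. Gpx4, whose loss sets off ferroptosis, stood at 205, 196 and 147 CPM in the Smarcb1 KO-labelled libraries, against 276, 301 and 377 CPM in Wildtype, again without overlap. Its log2 fold change was -0.80 (SE 0.18, adjusted p = 0.0317), and its call ended without Smarcb1 KO-labelled replicate 1 or 3, Arid2 KO-labelled replicate 2 or any 1 Wildtype library (adjusted p between 0.0552 and 0.101). A processed copy, Gpx4-ps2, matches Gpx4 at 99.7% over 733 bases, so reads of the pair may be shared and the Gpx4 count is uncertain. Summed over the 6 peroxidases the level was 633 to 695 CPM in the Smarcb1 KO-labelled libraries and 903 to 1108 CPM in Wildtype.

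Of the 2 members with a cysteine in place of selenocysteine, Gpx7, a peroxidase of the endoplasmic reticulum, stood at 7.23, 5.82 and 6.66 CPM in the Smarcb1 KO-labelled libraries, against 9.83, 10.6 and 10.7 CPM in Wildtype. It did not overlap between the groups but missed the threshold (log2 fold change -0.66, SE 0.18, adjusted p = 0.0542). Gpx8, its relative in the same compartment, was spread over 83.9, 40.3 and 59.97 CPM in the Smarcb1 KO-labelled libraries and lay at 53.0, 59.7 and 56.3 CPM in Wildtype (0.12, SE 0.22, adjusted p = 0.739). The gut-type Gpx2 (-0.41, SE 0.26) and the secreted Gpx3 (-0.26, SE 0.30) overlapped between the groups and did not pass. With the parathyroid and haemoglobin covariates the Gpx3 value turned positive, at 0.18 and 0.20. Calls were thus made for 2 of the 4 TGA-coded members and 0 of the 2 cysteine members, and the difference between the 2 kinds was not tested.

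Among the peroxiredoxins Prdx5, an atypical enzyme of mitochondria, peroxisomes and cytosol, stood at 168, 147 and 142 CPM in the Smarcb1 KO-labelled libraries, against 244, 266 and 234 CPM in Wildtype. The gap between the groups was wide against the spread within either. Its log2 fold change of -0.71 (SE 0.12) had an edgeR adjusted p of 0.0122, and the value was -0.66 with an adjusted p of 0.0538 without Smarcb1 KO-labelled replicate 3. Exons of Prdx5 and of Trmt112, on the other strand, share 409 bases, and no label says whether counting used strand. Trmt112 itself had 3.66 to 5.82 CPM in the Smarcb1 KO-labelled libraries and 7.56 to 8.14 CPM in Wildtype. Its log2 fold change was -0.71 (SE 0.20, edgeR adjusted p = 0.058). The part of this overlap in the Prdx5 count was not tested. The red-cell enzyme Prdx2 (-0.23, SE 0.09, adjusted p = 0.139) did not pass, and its count is uncertain where its exons overlap those of Junb and Rnaseh2a on the other strand; Junb had 2.98 to 7.74 CPM in the Smarcb1 KO-labelled libraries and 18.8 to 22.4 CPM in Wildtype. The cytosolic Prdx1 (0.17), mitochondrial Prdx3 (0.07), Prdx4 of the endoplasmic reticulum (-0.32), the single-cysteine Prdx6 (-0.07) and the sulfiredoxin Srxn1 (0.17), which repairs overoxidised peroxiredoxins, had SEs from 0.15 to 0.32 on the log2 scale and overlapped between the groups. Without the thymocyte-marked libraries the Srxn1 value was -0.25.

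In the thioredoxin system no member was called. The mitochondrial thioredoxin Txn2 stood at 58.6, 73.1 and 60.5 CPM in the Smarcb1 KO-labelled libraries, against 84.2, 76.0 and 95.25 CPM in Wildtype (log2 fold change -0.41, SE 0.15, edgeR adjusted p = 0.112). The groups just failed to overlap. Cytosolic Txn1 (-0.18, SE 0.14), the cytosolic, mitochondrial and testis-type reductases Txnrd1 (-0.09, SE 0.13), Txnrd2 (-0.30, SE 0.24) and Txnrd3 (0.12, SE 0.16), the inhibitor Txnip (-0.50, SE 0.22, adjusted p = 0.181), glutaredoxin Glrx (-0.03, SE 0.12) and the mitochondrial glutaredoxin Glrx2 (0.42, SE 0.16, adjusted p = 0.119) did not pass. With the parathyroid and haemoglobin covariates Txnrd2 had 0.08 and 0.17, and Txnrd1 -0.06 and 0.09. The levels of the 3 reductases, which also carry a TGA codon, overlapped between the groups. The part of that codon in the results was not tested. The counts of Prdx1, Sod1, Txn1, Gpx2 and Glrx2 are uncertain, since near-identical transcripts of other loci exist in the annotation.

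Catalase (Cat) and the superoxide dismutases Sod1 of the cytosol, Sod2 of mitochondria and Sod3 of the extracellular space all had negative log2 fold changes, of -0.09, -0.27, -0.17 and -0.40, with 0 of 4 called. Sod1 alone of the 4 did not overlap between the groups. With a parathyroid or haemoglobin covariate the values of Cat, Sod2 and Sod3 turned positive. The glutathione supply genes were divided. Gclc and Gclm, the catalytic and modifier subunits of glutamate-cysteine ligase, had 0.25 (SE 0.16) and 0.07 (SE 0.13), glutathione synthetase Gss -0.23 (SE 0.20), glutathione reductase Gsr -0.04 (SE 0.13), Slc7a11 0.60 (SE 0.93) and Mgst1 -0.23 (SE 0.22) on the log2 scale. None of the 6 passed. With the parathyroid and haemoglobin covariates Slc7a11 had -0.33 and -0.89, Mgst1 0.09 and 0.15, Gss 0.05 and 0.11, and Gsr 0.10 and 0.17, all of the other sign.

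In the Nrf2 axis the repressor fell and the factor did not pass. Keap1 stood at 21.4, 29.4 and 26.5 CPM in the Smarcb1 KO-labelled libraries, against 34.3, 38.2 and 38.8 CPM in Wildtype, with no overlap. At a log2 fold change of -0.52 (SE 0.13) it had an edgeR adjusted p of 0.0384. Of the 4 calls this one ended in the most fits with 1 library left out. It held without Smarcb1 KO-labelled replicate 2 and ended without any 1 of the other 8 libraries (adjusted p between 0.0537 and 0.108). Keap1 shares 510 exon bases with the antisense gene Gm16754, which had at most 1.57 CPM in any library. The part of this overlap in the Keap1 count was not tested. Nfe2l2 averaged 250.3 ± 18 CPM in the Smarcb1 KO-labelled libraries and 208 ± 18 CPM in Wildtype (0.27, SE 0.14, adjusted p = 0.228), the only member higher in all 3 knockout-labelled libraries than in any Wildtype library. Its targets did not pass, with -0.11 (SE 0.36) for the quinone reductase Nqo1 and -0.17 (SE 0.19) for the haem oxygenase Hmox1. With the parathyroid and haemoglobin covariates Nqo1 had 0.10 and 0.17, and Hmox1 -0.11 and 0.05. In all, 8 members lay lower without overlap and 1 higher, or 22.9% and 2.86% of the 35, where 16.7% and 17.1% of all genes tested did.

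**Figure D2:**
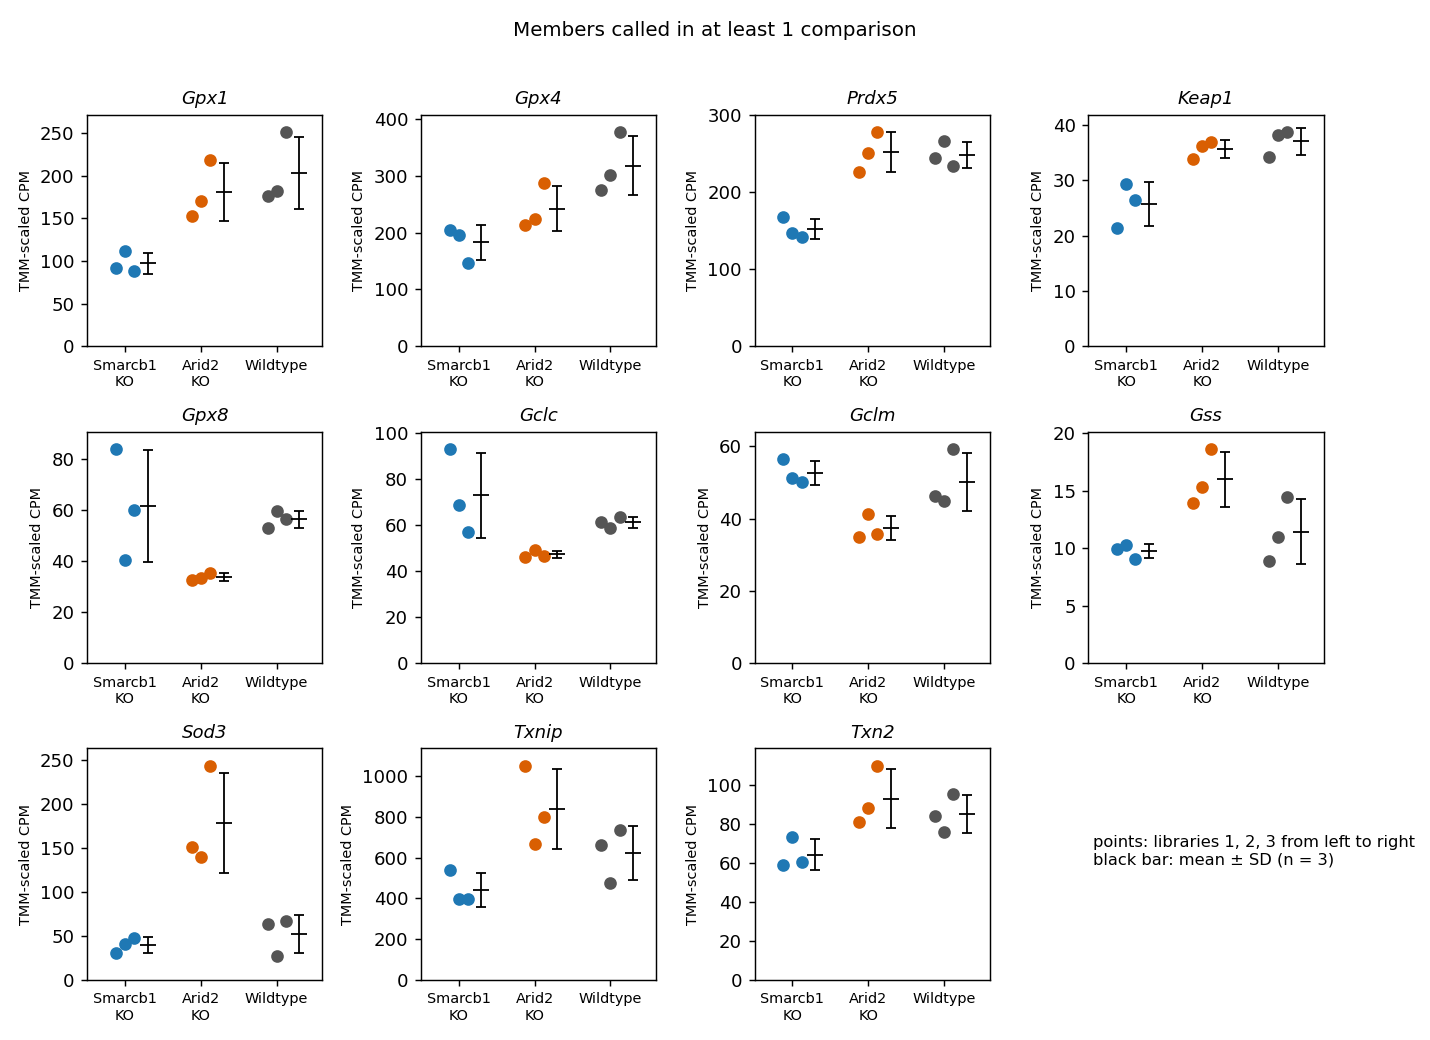
Levels in each library, in TMM-scaled CPM on axes that start at 0, of the 11 members called in at least 1 of the 3 comparisons. Coloured points are the 3 libraries of a group, and black bars give the mean ± SD (n = 3). For Gpx1, Gpx4, Prdx5 and Keap1 the Smarcb1 KO-labelled points lie under all Wildtype points. For Sod3 the Arid2 KO-labelled points, from 140.2 to 244 CPM, lie over all others.

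The 4 members that fell are also the 4 with the highest GC content of their longest transcript: 60.2% in Gpx4, 58.0% in Keap1, 57.2% in Gpx1 and 56.4% in Prdx5, against a median of 48.3% over the 35. The 21 members from 40% to 50% GC had a median log2 fold change of -0.09, and the 13 from 50% to 60% one of -0.30. Fold changes varied with GC content over the whole table as well: the median of all genes tested was 0.34 under 40% GC, 0.22 from 40% to 50%, -0.17 from 50% to 60% and -0.74 over 60%. After removal of the GC trend from each library, 0 members were called, and the calls over all genes in that fit are not given here. Gpx1 then had -0.74 (edgeR adjusted p = 0.0627), Prdx5 -0.41 (0.223), Gpx4 -0.17 (0.713) and Keap1 -0.14 (0.486). All 4 values were nearer 0 than before the removal. Gpx3, the next highest at 56.0% GC, had not been called before the removal either. Of the uncalled members with positive values before the removal, Gclm (-0.25), Prdx1 (-0.17), Prdx3 (-0.18) and Gpx8 (-0.18) had negative ones after it. Gclc (0.07), Nfe2l2 (0.05), Glrx2 (0.12), Txnrd3 (0.16), Srxn1 (0.22) and Slc7a11 (0.26) stayed positive.

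**Figure D3:**
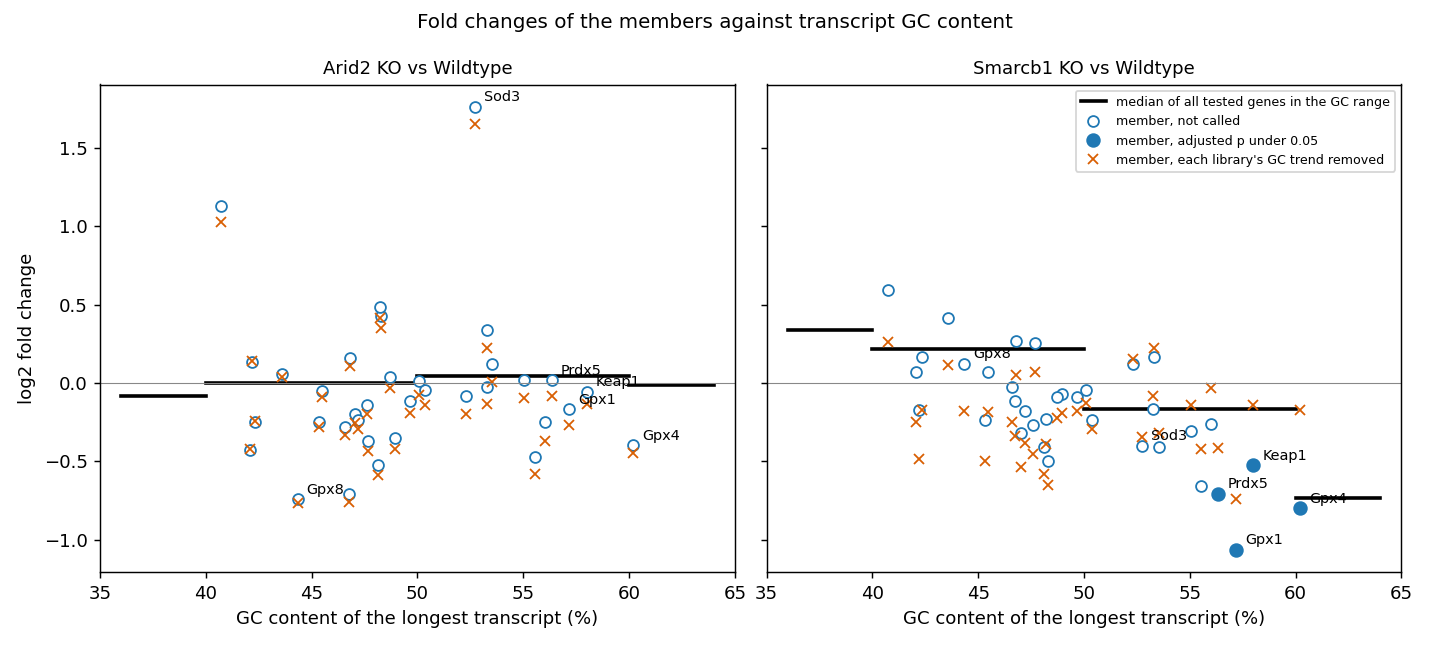
Log2 fold change of each member against the GC content of its longest transcript, for Arid2 KO-labelled (left) and Smarcb1 KO-labelled (right) against Wildtype. Circles are the members (filled where the adjusted p was under 0.05), crosses the same members with each library's GC trend removed, and black lines the median of all tested genes in each GC range. On the right the lines step down from 0.34 to -0.74 and the filled circles lie at the GC-rich end, and on the left they stay between -0.09 and 0.05.

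Other tissue moved with these groups. The summed level of 3 parathyroid markers was 6092 to 16992 CPM in the Smarcb1 KO-labelled libraries, against 8.16 to 4320 CPM in Wildtype, and that of 6 red-cell markers 117 to 213 CPM against 308 to 1476 CPM. The 3 cartilage markers summed to 6.56 to 182 CPM in the Smarcb1 KO-labelled libraries and 1.94 to 2.55 CPM in Wildtype. Of the 7 follicular thyroid markers 6 had negative log2 fold changes, with a median of -0.44 and 1 called lower. The part of the cartilage and follicular markers in the results was not tested. When the level of the parathyroid markers was a covariate, 0 members were called, and Gpx1 had -0.75 (edgeR adjusted p = 0.0503), Prdx5 -0.69 (0.0681), Gpx4 -0.56 (0.167) and Keap1 -0.47 (0.185). When it was the haemoglobin level, 0 were called as well, in a fit that called 38 of all genes against 1349 as reported. Gpx1 then had -0.65, Prdx5 -0.66, Gpx4 -0.47 and Keap1 -0.47. All 4 values stayed negative under both covariates, with Prdx5 nearly as low as without them. Without the 2 libraries that hold thymocyte transcripts 7 members were called, Gpx7 (-0.62), Txn2 (-0.56) and, higher, Glrx2 (0.53) besides the 4. Without Smarcb1 KO-labelled replicate 3 the count was 0, and it was 2 without Smarcb1 KO-labelled replicate 1, Arid2 KO-labelled replicate 2 or any 1 Wildtype library. Except for the haemoglobin fit, the calls over all genes in these fits are not given here.

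In the Arid2 KO-labelled thyroids 0 of the 35 genes passed against Wildtype by edgeR, while 0.234% of all genes tested were called higher and 0.322% lower. By DESeq2 3 passed, Sod3 higher and Gpx8 and Gclm lower, where 882 of all genes tested did. In edgeR 7 of the 35 members had an unadjusted p under 0.05, as did 2541 of the 17079 genes tested. The members had a median log2 fold change of -0.08 and all genes tested one of 0.02. The comparison uses the same Wildtype libraries as the one above, and Arid2 itself was not lower in the libraries so labelled. Of the 7 follicular thyroid markers 6 had negative log2 fold changes here as well, with a median of -0.34 and 0 called. All 6 red-cell markers had negative ones, with a median of -0.89 and 0 called. The part of the follicular markers in the results was not tested. The members lying lower without overlap were 8, or 22.9% of the 35, against 12.6% of all genes, and 1 lay higher, against 12.9%.

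The largest difference was that of Sod3, the superoxide dismutase secreted into the matrix of vessel walls and other tissue. It stood at 151.5, 140.2 and 244 CPM in the Arid2 KO-labelled libraries, against 63.5, 27.5 and 66.7 CPM in Wildtype. The groups lay far apart, with Wildtype replicate 2 lowest and Arid2 KO-labelled replicate 3 highest. The level was 3.40 times that of Wildtype on the fitted scale (log2 fold change 1.76, SE 0.35, edgeR adjusted p = 0.0689). It passed with the parathyroid covariate (1.73, adjusted p = 0.0366) and the haemoglobin covariate (2.14, adjusted p = 0.0399), and by DESeq2, and it passed in none of the 9 fits that left out 1 library nor without both thymocyte-marked ones (1.84, adjusted p = 0.113). Endothelial markers, 4 of 4 detected, summed to 489 to 577 CPM in the Arid2 KO-labelled libraries and 275 to 379 CPM in Wildtype, and 4 airway markers to 22.5 to 60.2 CPM against 0.607 to 1.19 CPM. The cartilage markers summed to 4.77 to 9.70 CPM in the Arid2 KO-labelled libraries and 1.94 to 2.55 CPM in Wildtype. Their part in the Sod3 difference was not tested. The intracellular enzymes Cat (0.04, SE 0.16), Sod1 (-0.14, SE 0.13) and Sod2 (0.13, SE 0.15) overlapped between the groups.

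All 6 glutathione peroxidases had negative log2 fold changes in this comparison, with a median of -0.43, and 0 passed. With the haemoglobin covariate, or without Wildtype replicate 3, the value of Gpx1 turned positive. Gpx8 stood at 32.4, 33.5 and 35.2 CPM in the Arid2 KO-labelled libraries, against 53.0, 59.7 and 56.3 CPM in Wildtype. Both groups were tight and well apart (-0.74, SE 0.22, edgeR adjusted p = 0.161), and it passed in the fit of only the 6 libraries compared (adjusted p = 0.0205). Gpx7 stood at 6.14, 7.40 and 8.915 CPM in the Arid2 KO-labelled libraries, against 9.83, 10.6 and 10.7 CPM in Wildtype (-0.47, SE 0.18, adjusted p = 0.261). The selenocysteine members Gpx1 (-0.17), Gpx2 (-0.52), Gpx3 (-0.25) and Gpx4 (-0.40) had SEs from 0.18 to 0.30, and of these Gpx2 did not overlap between the groups. The 4 fibroblast markers summed to 642 to 725 CPM in the Arid2 KO-labelled libraries, against 986 to 1093 CPM in Wildtype, all 4 with negative log2 fold changes. Their part in the Gpx7 and Gpx8 differences was not tested.

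Among the genes of glutathione supply both subunits of the rate-limiting ligase had negative log2 fold changes and the next enzyme a positive one, all without a call. Gclc stood at 46.3, 49.1 and 46.6 CPM in the Arid2 KO-labelled libraries, against 61.2, 58.9 and 63.3 CPM in Wildtype (-0.37, SE 0.16, edgeR adjusted p = 0.323). Gclm stood at 34.97, 41.2 and 35.8 CPM, against 46.2, 44.8 and 59.3 CPM in Wildtype (-0.42, SE 0.13, adjusted p = 0.171). Neither subunit overlapped between the groups. Gss, which joins glycine to the product of that ligase, stood at 13.9, 15.4 and 18.7 CPM, against 8.89, 10.98 and 14.4 CPM in Wildtype, with overlap (0.48, SE 0.19, adjusted p = 0.293). Slc7a11, which brings in the cystine for this chain, stood at 12.1, 2.99 and 0.337 CPM, against 1.24, 3.02 and 2.79 CPM in Wildtype, so that its log2 fold change of 1.13 (SE 0.93) rests on Arid2 KO-labelled replicate 1, the library with thymocyte markers, and turned negative without it. Gsr (0.01) and Mgst1 (-0.25) overlapped, and the small value of Gsr changed sign with the scaling of the libraries.

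The peroxiredoxins and thioredoxins had log2 fold changes in this comparison from -0.35 to 0.43 over 15 genes, with 0 called. Prdx1 (-0.25), Prdx6 (-0.35) and Glrx (-0.28) lay under Wildtype without overlap. Txnip averaged 840.2 ± 197 CPM, against 625 ± 132 CPM in Wildtype (0.43, SE 0.22, and 0.20 without the thymocyte-marked libraries), and Srxn1 38.5 ± 8.4 CPM, against 30.4 ± 8.0 CPM in Wildtype (0.34, SE 0.32). Prdx2 (-0.05), Prdx3 (-0.05), Prdx4 (-0.20), Prdx5 (0.02), Txn1 (-0.24), Txn2 (0.12), Txnrd1 (-0.11), Txnrd2 (0.02), Txnrd3 (-0.08) and Glrx2 (0.06) overlapped. The sign of the Prdx5 value also depended on the scaling. In the Nrf2 axis Nfe2l2 (0.16), Keap1 (-0.05) and Hmox1 (-0.03) had SEs of 0.12 to 0.19, and Nqo1 averaged 8.96 ± 0.45 CPM, against 14.6 ± 6.0 CPM in Wildtype (-0.71, SE 0.36, edgeR adjusted p = 0.397). The Wildtype libraries themselves ran from 8.22 to 19.99 CPM for Nqo1, so the groups overlapped.

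**Figure D4:**
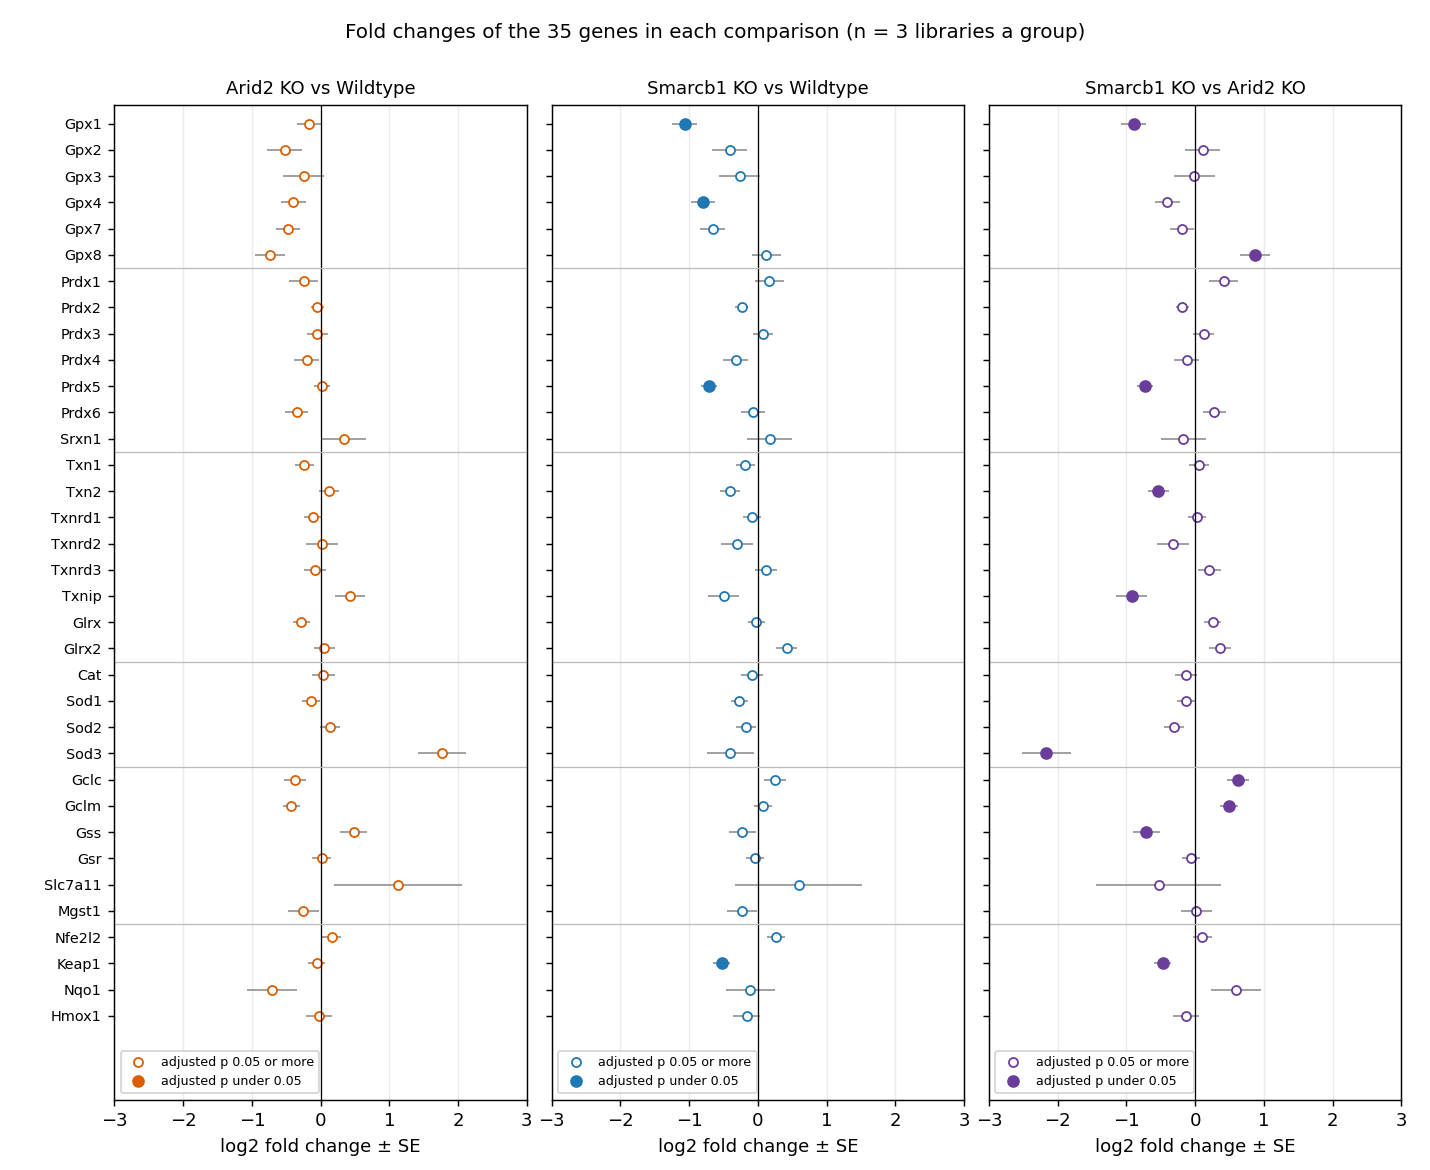
Log2 fold change ± SE of the 35 genes in each comparison, with rows grouped by role (n = 3 libraries a group). Filled points had an adjusted p under 0.05: 0 in the left panel, 4 in the middle and 10 in the right. The Wildtype libraries are shared by the left and middle panels, and the knockout-labelled libraries by the right panel and the others.

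Set directly against each other, the knockout-labelled groups differed in 10 members, 7 lower and 3 higher in the Smarcb1 KO-labelled libraries. Of the members 20% were lower and 8.57% higher, against 9.32% lower and 6.95% higher of all genes tested. The lower ones were Gpx1, Prdx5, Keap1, Txn2, Txnip, Sod3 and Gss, and the higher ones Gpx8, Gclc and Gclm. Without overlap 10 members lay lower and 4 higher, 28.6% and 11.4% of the 35, against 20.5% and 18.3% of all genes. This comparison reuses the libraries of the other 2 and is no separate evidence for them.

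Sod3 stood at 30.3, 41.1 and 48.1 CPM in the Smarcb1 KO-labelled libraries, against 151.5, 140.2 and 244 CPM in the Arid2 KO-labelled ones, with every library of one group far from the other (log2 fold change -2.16, SE 0.36, edgeR adjusted p = 0.00950). Prdx5 stood at 168, 147 and 142 CPM, against 226, 250.4 and 278 CPM (-0.72, SE 0.12, adjusted p = 0.00918). These were the 2 members that passed in all 9 fits with 1 library left out. The endothelial markers summed to 331 to 501 CPM in the Smarcb1 KO-labelled libraries, against 489 to 577 CPM in the Arid2 KO-labelled ones, and the airway markers to 0.487 to 4.62 CPM against 22.5 to 60.2 CPM. Gpx1 stood at 91.7, 111 and 88.3 CPM, against 153, 170.3 and 219 CPM in the Arid2 KO-labelled libraries (-0.90, SE 0.18, adjusted p = 0.0176), and its call ended without Smarcb1 KO-labelled replicate 1 or 3 or Arid2 KO-labelled replicate 3 (adjusted p between 0.0595 and 0.0698). Gpx4 did not pass (-0.40, SE 0.18, adjusted p = 0.139).

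Txnip, which binds thioredoxin and is induced by glucose, stood at 539, 395 and 396 CPM in the Smarcb1 KO-labelled libraries, against 1054, 667 and 801 CPM in the Arid2 KO-labelled ones (-0.92, SE 0.22, edgeR adjusted p = 0.0284). The highest value belongs to Arid2 KO-labelled replicate 1, and the call ended without it, without Arid2 KO-labelled replicate 3 or without Smarcb1 KO-labelled replicate 3 (adjusted p between 0.0677 and 0.0891). Exons of Txnip share 606 bases with those of Gm15441 on the other strand, so the Txnip count is uncertain. Txn2, the mitochondrial partner, stood at 58.6, 73.1 and 60.5 CPM, against 80.7, 88.0 and 109.9 CPM in the Arid2 KO-labelled libraries (-0.53, SE 0.15, adjusted p = 0.0413). Keap1 stood at 21.4, 29.4 and 26.5 CPM, against 33.9, 36.2 and 37.0 CPM (-0.47, SE 0.13, adjusted p = 0.0368). The groups did not overlap in any of the 3 genes, but the Txn2 call ended without 7 of the 9 libraries in turn (adjusted p between 0.0504 and 0.140) and held without Arid2 KO-labelled replicate 1 or Smarcb1 KO-labelled replicate 2. The Keap1 call held only without Smarcb1 KO-labelled replicate 2 (adjusted p between 0.0521 and 0.125 without the others).

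Glutathione supply showed opposite directions within 1 pathway. Gclc stood at 93.1, 68.5 and 56.9 CPM in the Smarcb1 KO-labelled libraries, against 46.3, 49.1 and 46.6 CPM in the Arid2 KO-labelled ones (0.62, SE 0.16, edgeR adjusted p = 0.0332). Gclm, its modifier, stood at 56.4, 51.1 and 50.2 CPM, against 34.97, 41.2 and 35.8 CPM (0.49, SE 0.13, adjusted p = 0.0352). Both subunits were higher in each Smarcb1 KO-labelled library than in any Arid2 KO-labelled one. Exons of Gclm share 244 bases with the pseudogene Gm6061 on the same strand and 296 bases with Gm17494 on the other. The Gclm count is therefore uncertain. Gss stood at 9.97, 10.3 and 9.09 CPM, against 13.9, 15.4 and 18.7 CPM in the Arid2 KO-labelled libraries (-0.71, SE 0.20, adjusted p = 0.0404). Its exons overlap those of Acss2 on the other strand over 395 bases, and Acss2 had 25.1 to 45.1 CPM in the Smarcb1 KO-labelled libraries and 42.3 to 94.0 CPM in the Arid2 KO-labelled ones, so the Gss count is uncertain. Gpx8 stood at 83.9, 40.3 and 59.97 CPM, against 32.4, 33.5 and 35.2 CPM (0.87, SE 0.22, adjusted p = 0.0314), and the tight low group is the Arid2 KO-labelled one. The 4 fibroblast markers summed to 760.2 to 1222 CPM in the Smarcb1 KO-labelled libraries, against 642 to 725 CPM in the Arid2 KO-labelled libraries. Of these markers 3 had positive log2 fold changes and 1 a negative one, with 2 called higher and 1 lower. Their part in the Gpx8 difference was not tested. The call of Gclc ended without 7 of the 9 libraries in turn, those of Gclm and Gpx8 without 6 and that of Gss without 5, with adjusted p between 0.0505 and 0.138. All 4 ended without Arid2 KO-labelled replicate 2 or 3 or Smarcb1 KO-labelled replicate 1. Gclc, Gclm and Gpx8 also ended without Arid2 KO-labelled replicate 1, and Gclm, Gpx8 and Gss without Smarcb1 KO-labelled replicate 3. Without Wildtype replicate 1 those of Gclc, Gclm and Gpx8 ended, without replicate 2 those of Gclc and Gss, and without replicate 3 that of Gclc.

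The count of 10 was 3 with the GC trend removed, Sod3 (-1.995), Txnip (-1.003) and Gss (-0.80). Prdx5 then had -0.33 (edgeR adjusted p = 0.255), Gpx1 -0.47 (0.137), Txn2 -0.33 (0.138), Gpx8 0.59 (0.0942), Gclc 0.50 (0.0758) and Keap1 -0.004 (0.988). The count was 0 with the parathyroid covariate, in a fit that called 145 of all genes against 2779 as reported. Sod3 then had -1.54 (edgeR adjusted p = 0.061) and Prdx5 -0.71 (0.0729). The parathyroid markers summed to 6092 to 16992 CPM in the Smarcb1 KO-labelled libraries and to 10.6 to 1581 CPM in the Arid2 KO-labelled ones, ranges that do not overlap, the red-cell markers to 117 to 213 CPM against 267 to 699.6 CPM, and the brown fat markers to 42.6 to 210.1 CPM against 298 to 654 CPM. With the haemoglobin covariate 4 were called, Gpx1, Prdx5, Sod3 and Gclm. Without the thymocyte-marked libraries 8 were called: Txnip (-0.66, adjusted p = 0.079), Gclc and Gclm no longer passed, and Glrx2 did (0.49). The count was 5, 4 and 2 without Arid2 KO-labelled replicates 1, 2 and 3, was 3 without Smarcb1 KO-labelled replicate 1 or 3, and was 5 and 6 without Wildtype replicates 1 and 2. Except for the parathyroid fit, the calls over all genes in these fits are not given here. Median log2 fold changes of all genes in this comparison ran from 0.42 under 40% GC to -0.77 over 60% GC. From 40% to 50% GC the median of all genes was 0.21. Of the called members in that range Gclc (47.7% GC), Gclm (42.1%) and Gpx8 (44.3%) were higher, and Txnip (48.3%) and Gss (48.2%) lower. With the trend removed Gclm had 0.18 (edgeR adjusted p = 0.434).

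The sequence near the start sites was read for the antioxidant response element, the DNA word bound by Nrf2 with its small Maf partners, in the core form TGACNNNGC on either strand. RefSeq promoter windows of GRCm38.p6, 300 bases long and reaching across a start site, were matched by symbol for 30 of the 35 members. The word occurred in 7 of them, or 23.3%, and in 14.0% of all 27025 genes in the same table. The 7 were Prdx1, Txnrd1, Sod1, Gclm, Srxn1, Nfe2l2 and Mgst1, of which Gclm was called in a comparison and the other 6 were not. The windows of Gclm, in the promoter at chr3:122245307-122245606 on the plus strand, and of Prdx1, at chr4:116685349-116685648 on the plus strand, are shown as a called and an uncalled member, with the word on the opposite strand in capitals. The Prdx1 word also holds TGAGTCA, the word of AP-1 factors, which lay in 10% of the members and 5.95% of all genes. A match describes these letters and says nothing of binding.
Gclm: cgctcccgggcGCACCGTCAactctcacga
Prdx1: ccagggaaagcGCTGAGTCAtcccccgtag

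Around the 35 members, 133 tested genes of 10 neighbouring lists were read. In the Smarcb1 KO-labelled libraries 12 of them fell against Wildtype and 0 rose, where 5.74% of all genes tested fell and 2.15% rose. Pgls, an enzyme of the pentose phosphate path that makes NADPH, stood at 14.1, 20.2 and 18.5 CPM in the Smarcb1 KO-labelled libraries, against 42.3, 51.6 and 53.5 CPM in Wildtype (-1.48, SE 0.16, edgeR adjusted p = 0.00286). The groups were widely separated. The biliverdin reductase Blvrb (-1.08) and ferritin light chain Ftl1 (-0.72) fell among Nrf2 targets, and Gstt2 (-0.76) and Mgst3 (-0.78) among glutathione transferases. Cyba, the p22 subunit of NADPH oxidases, fell among peroxide generators (-0.94). Dpep1 (-0.84), Ggt1 (-0.67) and Lap3 (-0.54), peptidases of glutathione breakdown or amino acid release, fell, as did the iron-sulfur glutaredoxin Glrx5 (-0.68), the selenoprotein gene 2700094K13Rik, now Selenoh (-0.70), and the deiodinase Dio3 (-1.58), which was near the floor at 0.325 to 0.763 CPM in the Smarcb1 KO-labelled libraries and 1.33 to 1.94 CPM in Wildtype. The list medians ran from -0.48 for glutathione breakdown and transport and -0.42 for NADPH supply to 0.10 for other proteins of the thioredoxin fold, against 0.05 for all genes. The values of these neighbouring genes with the GC trend removed, with a covariate or with a library left out are not given here.

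In the Arid2 KO-labelled libraries 2 of the 133 rose and 3 fell against Wildtype, where 0.234% of all genes tested rose and 0.322% fell. The nucleoredoxin Nxn, a thioredoxin relative that binds Dishevelled, stood at 53.6, 60.5 and 58.8 CPM in the Arid2 KO-labelled libraries, against 38.5, 36.5 and 35.03 CPM in Wildtype (0.65, SE 0.09, edgeR adjusted p = 0.0254). The glutathione transferase Gstp1 also rose (1.13, adjusted p = 0.0420), though its reads may be shared with the near-identical Gstp2. Lap3 (-0.78), Dio3 (-2.70, at 0.143 to 0.369 CPM) and Duoxa1 (-2.58), the maturation factor of the peroxide generator Duox1, fell. Between the knockout-labelled groups 9 of the 133 were higher and 17 lower in the Smarcb1 KO-labelled libraries, where 6.95% of all genes tested were higher, a share near that of the 133, and 9.32% lower. Pgls (-1.56), the mitochondrial NADPH source Idh2 (-0.58), the mitochondrial carrier Slc25a39 (-1.01), which takes up glutathione, and the glutathione-degrading Chac1 (-2.04) were lower, and the transferase Gstm2 (1.26), the aminopeptidase Anpep (2.21) and Duoxa1 (1.98) were higher.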

How the data were processed

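Whole-thyroid RNA of 9 mouse libraries was isolated with TRIzol and prepared with an Illumina TruSeq kit, per the labels' protocols. The values are raw read counts per gene, whole numbers deposited by the authors with no normalization. The mm9 build and the tools DESeq2, HTSeq 0.6.1 and STAR 2.4 appear in the submitters' processing notes, without role or order, and use of strand is not given in the sources used here.

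Groups came from the genotype labels, and replicates 1 to 3 were numbered in accession order. The counts were fitted with edgeR 4.0.16 in R 4.3.3 (TMM scaling, filterByExpr, quasi-likelihood F test, 3 group means, 9 libraries, 6 residual degrees of freedom), with Benjamini-Hochberg adjustment over 17079 genes and calls at an adjusted p under 0.05. SEs were derived from the fold change and its F statistic. The step was tested on simulated data. Libraries of 1 group differed beyond counting noise (chi-square per degree of freedom 51.2 to 132), so none is a copy. Counts ran from 21 (Slc7a11) upward among the members.

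GC content, lengths, exon overlaps and codons came from GENCODE M21 (GRCm38), promoters from RefSeq (GRCm38.p6). Those builds differ from mm9, so no coordinates were mixed. GC content was found for 97.3% of tested genes and all 35 members. Similar transcripts (at least 95% over 200 bases) were sought with minimap2.

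Alternatives were 4 other scalings, 2 other filters, DESeq2 1.42.0, limma-voom (limma 3.58.1), a 6-library fit, 2 other thresholds, GC trend removal (natural spline, 5 degrees of freedom), parathyroid and haemoglobin covariates, and omission of libraries. The 35 members, the lists and these alternatives were chosen with earlier results of these data known. Values in every library are given for members called in any comparison and for the 6 with the smallest p against Wildtype in each.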

Additional observations from a re-analysis of the deposited data

How the results depend on the processing

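Over 13 alternatives and 9 fits without 1 library, no member changed direction in a comparison in which it was called. Such members were called for values far from 0 beside their SE, so a change of direction was unlikely beforehand. Members not called did change sign in some fits, as Gsr did in 9 of those for Arid2 KO-labelled against Wildtype. Against Wildtype, the count of 0 in the Arid2 KO-labelled libraries was 3 with DESeq2, 1 with only the 6 libraries compared, 1 with either covariate, 1 at an adjusted p under 0.1, and 0 without any 1 library. The count of 4 in the Smarcb1 KO-labelled libraries was 2 with library totals and with the 6 libraries compared, 0 with GC trend removal, with either covariate and at an adjusted p under 0.01, 7 without the thymocyte-marked libraries, and 0 to 5 without 1 library. The count of 10 between the knockout-labelled groups was 6 with the 6 libraries compared, 3 with GC trend removal, 0 with the parathyroid and 4 with the haemoglobin covariate, 2 at an adjusted p under 0.01, and 2 to 11 without 1 library. The cause was not tested. Over all genes, calls against Wildtype ran from 5 to 882 (95 as reported) in the Arid2 KO-labelled libraries and from 38 to 2934 (1349) in the Smarcb1 KO-labelled libraries, and from 145 to 4903 (2779) between those groups. The alternatives moved the median of all genes by at most 0.07 (log2). The fewest counts of a member in a library were 21, for Slc7a11. No paired analysis was possible because the labels give no replicate numbers.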
